A study of Mus musculus with 5 samples.

Results

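The strongest NEUROD2 ChIP-Seq signals of the embryonic mouse cortex were 803 genomic regions with a peak score of at least 3000 in any antibody, among 32261 regions bound with at least 2 antibodies (2.49%). To find them, peaks of 3 NEUROD2 antibodies that shared at least 1 bp were merged, and merged regions on chromosomes 1 to 19, X and Y with 2 antibodies or more are called shared regions. The members were chosen by the measured peak score itself. The score is 10 times the −log10 of the p-value that the peak caller MACS gave to a peak. Scores, the number of antibodies, peak width and the split between antibodies are therefore described below without a test. DNA sequence, distance to genes and chromosome were not used to choose the members.

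The chromatin came from the cerebral cortex of BALB/c embryos at E14.5, a stage at which progenitors and young projection neurons lie side by side, and tissue of several litters was pooled according to the study's methods. Antibody ab1 (Abcam ab168932) was raised in mouse, and ab2 (ab104430) and ab3 (ab109406) were raised in rabbit. Each antibody gave 1 library, peaks were called against a GFP antibody of the same host species, and ab2 and ab3 shared the rabbit GFP control. No genotype, treatment or second time point was compared, and no antibody had a biological replicate, so the 3 libraries are 3 readings of a single condition. No p-value is given, and intervals are 95% Wilson intervals over regions that cover counting error only. The ab1 list was the longest with 51841 peaks, followed by ab2 with 35310, and the ab3 list had 7470. The read depth behind a peak was not analysed here.

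NEUROD2 is a basic helix-loop-helix (bHLH) transcription factor of newborn and mature excitatory neurons in the cortex. Factors of this family bind DNA as dimers, often with the widely expressed E proteins, at a short palindrome-like element called the E-box, CANNTG. The inner bases of the E-box separate the family members, and neurogenic factors prefer CAGATG and CAGCTG. Bound sites of such factors lie at promoters and, in larger number, at distal enhancers inside introns and between genes.

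The sequences at 5 of the highest members, ordered by the sum of the scores of the antibodies, show what these elements look like. They are examples from the 12 highest whose windows hold an extended E-box. The same windows of regions 9, 10 and 12 hold 1 each and are not shown, and those of regions 3, 4, 6 and 7 hold none. Each is 120 bp on the plus strand of GRCm38 (mm10), centred on the stretch covered by the highest peak of every antibody. Capitals mark the 6 letters of the core of each extended E-box. An extended E-box has the core CAGCTG, or the core CAGATG read in either direction, or the core CATATG, and on the strand read a G or T comes right after the core. Region 1 lay at chr4:13146365-13148214, between genes, and the window shown is chr4:13146960-13147079. Region 2 lay at chr11:99984725-99986821 over a coding exon of the keratin-associated gene Krtap16-1, with the window chr11:99985895-99986014. Region 5 lay at chr8:122708893-122710916, upstream of the corepressor gene Cbfa2t3, with the window chr8:122709606-122709725. Region 8 lay at chr8:83584654-83585799, over a noncoding exon of D830024N08Rik, with the window chr8:83585035-83585154. Region 11 lay at chr4:134579511-134582115, over a coding exon of the mannosidase gene Man1c1, with the window chr4:134580926-134581045.
Region 1: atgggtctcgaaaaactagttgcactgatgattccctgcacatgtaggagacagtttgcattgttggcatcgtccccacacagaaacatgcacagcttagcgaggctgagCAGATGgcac
Region 2: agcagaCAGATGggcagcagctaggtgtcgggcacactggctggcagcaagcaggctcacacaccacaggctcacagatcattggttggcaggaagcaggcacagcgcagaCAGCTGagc
Region 5: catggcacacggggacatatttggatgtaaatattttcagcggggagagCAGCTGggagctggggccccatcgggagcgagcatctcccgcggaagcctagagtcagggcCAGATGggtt
Region 8: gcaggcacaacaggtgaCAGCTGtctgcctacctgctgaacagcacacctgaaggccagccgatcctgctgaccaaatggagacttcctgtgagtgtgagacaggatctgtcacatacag
Region 11: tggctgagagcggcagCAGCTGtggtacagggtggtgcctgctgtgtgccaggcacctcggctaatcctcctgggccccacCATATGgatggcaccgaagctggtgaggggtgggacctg

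Some members held many E-boxes in a short stretch, and 2 of them are shown because the same core returns several times within the window. Region 451 (chr17:8204849-8205890, between genes, window chr17:8205344-8205463) held 14 extended E-boxes in a region of 1042 bp. Region 527 (chr8:111614307-111615383, in an intron of the ubiquitin ligase gene Znrf1, window chr8:111614749-111614868) held 11. Region 252 (chr14:114959449-114960431) held 15, with both CAGCTG and CAGATG cores, and is not shown. In region 451 the repeated core was CAGCTG, whereas in region 527 it was CATCTG, the reverse complement of CAGATG. In both windows the bases around the core return with few changes, so the E-boxes shown are copies within a tandem repeat. How reads mapped to such repeats was not analysed here.
Region 451: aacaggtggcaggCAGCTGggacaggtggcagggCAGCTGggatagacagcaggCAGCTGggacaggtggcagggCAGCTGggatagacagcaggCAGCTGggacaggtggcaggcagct
Region 527: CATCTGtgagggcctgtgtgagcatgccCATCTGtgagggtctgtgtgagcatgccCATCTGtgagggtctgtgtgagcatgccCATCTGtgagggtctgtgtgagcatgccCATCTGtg

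At the other end, 8 of the 803 members held no extended E-box anywhere. They are region 304 in Auts2, region 366 near Kcna5, region 438 near Csnk1e, region 555 in Agap1, region 706 in Vcl, region 730 in Gabra2, region 738 near Castor2 and region 798 in Cplx2. Their ab1 scores were all 3100, and their ab2 scores ran from 791.61 at region 798 to 2201.66 at region 304. The sequences of 2 of them are shown for contrast. Region 706 (chr14:20970799-20971600, window chr14:20971106-20971225) lay in an intron of Vcl, which encodes the focal adhesion protein vinculin. Region 438 (chr15:79461391-79463799, window chr15:79462654-79462773) lay upstream of the kinase gene Csnk1e in a run of short AGC-rich repeats, and its ab3 score of 688.93 was above the members' median.
Region 706: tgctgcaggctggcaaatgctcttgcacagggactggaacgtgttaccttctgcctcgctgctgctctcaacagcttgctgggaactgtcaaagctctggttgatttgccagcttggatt
Region 438: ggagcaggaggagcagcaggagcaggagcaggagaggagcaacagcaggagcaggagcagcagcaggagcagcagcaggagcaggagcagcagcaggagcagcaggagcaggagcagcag

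The choice of the members rested on a single antibody. All 803 members had an ab1 score of at least 3000, and 83 of them had an ab2 score of at least 3000. None reached it with ab3, whose highest score in the data was 1783.33. No member was chosen through ab2 alone. When ab1 was left out, 83 regions stayed at or above the threshold, against 797 without ab2 and 803 without ab3. Peaks at or above 3000 numbered 807 for ab1 and 83 for ab2, and all of them fell in shared regions.

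Many scores at the top of the scale were tied. The ab1 score was exactly 3100 in 657 members (81.8%), lay between 3000.91 and 3100 in 77, and lay above 3100 in 69. Early versions of MACS write 3100 where a p-value is too small to be stored. The study's methods give a version number for MACS, which may be that of the workflow tool around it. It was not matched to a release here, so whether 3100 stands for the same was not tested, and the place of the tied scores relative to those above 3100 is not known. The smallest positive number that a computer stores in double precision corresponds to a score of 3233.06, which was the highest score of any member and was carried by 5 members. Members with ab1 at 3100 had a median ab2 score of 2092.29 and a median ab3 score of 390.81. Members with ab1 from 3000 to under 3100 had median scores of 1472.02 (ab2) and 231.68 (ab3). Members with ab1 over 3100 had medians of 1506.99 and 227.2, close to the members under 3100 and below the tied ones with both antibodies.

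Within the members, the ab2 and ab3 scores were more graded than those of ab1, although ab1 and ab2 were both at 3100 in 62 members. The ab2 score ran from 277.52 through a median of 1997.4 to 3233.06, and the ab3 score ran from 68.0 through 353.78 to 1783.33 in the 794 members with an ab3 peak. In the 1008 shared regions with a highest score from 2000 to under 3000, the medians were 1157.2 for ab2 and 181.27 for ab3. Over all shared regions they were 140.25 and 90.46. Across the 794 members the ab2 and ab3 scores rose together, with a Spearman rho of 0.717 and a Pearson r of 0.714 on log10 scores. These 2 libraries shared their host species and their GFP control, so the correlation is a description of the peak lists. Between ab1 and ab2 the rho was 0.052 (803 members), and between ab1 and ab3 it was 0.031 (794 members). The rule kept only ab1 scores of at least 3000, and most of these were tied. These values therefore cannot show whether ab1 is related to ab2 or ab3.

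**Figure D1:**
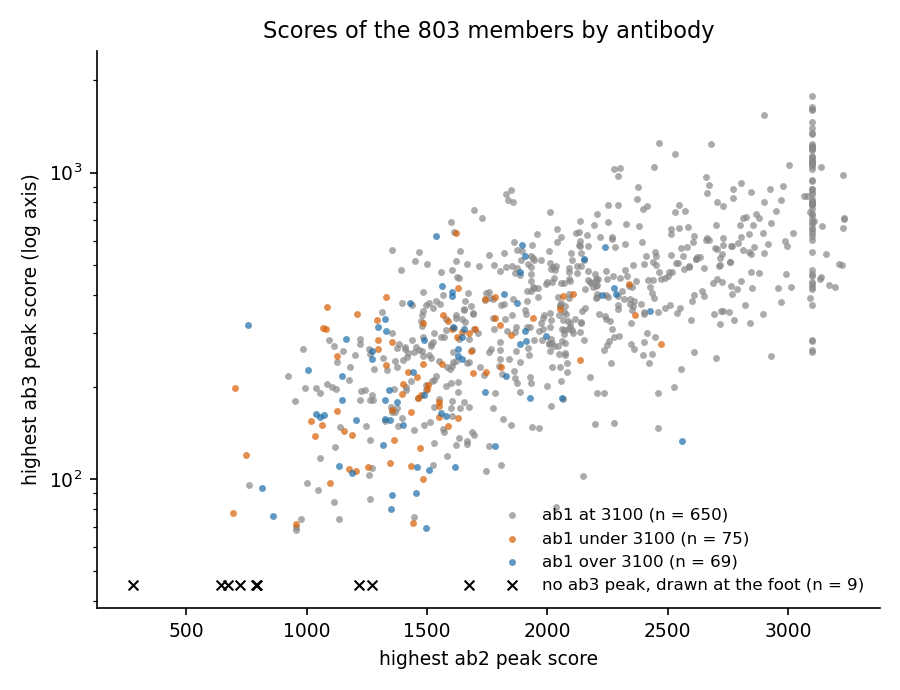
Highest ab2 peak score (x axis) against highest ab3 peak score (y axis, log scale) in each of the 803 members, with colours for an ab1 score at, under or over 3100; crosses at the foot are the 9 members without an ab3 peak. The points at an ab1 score of 3100 reach the upper right, and the points under and over 3100 lie together at lower ab2 and ab3 scores.

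The members chosen on ab1 were also among the highest regions of the other antibodies. Of the 803 shared regions with the highest ab2 scores, 622 were members (77.5%), and of the 803 with the highest ab3 scores 553 were members (68.9%). Members were 2.49% of all shared regions. An ab3 peak was present in 7211 shared regions, 794 of them members. The 83 regions with an ab2 score of at least 3000 are members by the rule itself, so the ab2 overlap is in part fixed by it. No region entered through ab3, and 95 of the 100 highest by ab3 were members. At the lower end, 21 members had an ab3 score under 100, whereas 34 had an ab3 score of at least 1000.

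The highest members by the sum of the scores tied at 3100 with ab1 and mostly with ab2, so their order came from ab3. Region 1 had scores of 3100 with ab1, 3100 with ab2 and 1783.33 with ab3, and its closest protein-coding transcription start site (TSS), that of Triqk, was 240432 bp away. Region 2 had 3100, 3100 and 1637.64 and lay 824 bp downstream of the TSS of Krtap16-1. Region 3 (chr10:84357375-84359132) had 3100, 3100 and 1609.22 and lay between genes, 82343 bp downstream of the TSS of Nuak1, a kinase known for its part in axon branching. Of these 3 regions, 2 were outside genes. Region 4 (chr19:7146310-7150527) had 3100, 3100 and 1603.38 and lay in an intron of Macrod1, at -42690 bp from the TSS of the adhesion gene Flrt1. Region 5 had 3100, 3100 and 1468.71 and lay upstream, at -10796 bp, from the TSS of Cbfa2t3, whose product is a corepressor of the MTG family. Region 8 had 3100, 2901.4 and 1540.03, the only one of the 12 highest with an ab2 score under 3000.

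The other members among the 12 highest had ab3 scores between 1218.13 and 1400.23. They were region 6 near Klhl29, region 7 in Stim1, which encodes a calcium sensor of the endoplasmic reticulum, and region 9, 79085 bp from the TSS of the bHLH gene Olig3. Region 10 lay in an intron of Trak1, which encodes an adaptor of mitochondrial transport, with the neuropeptide gene Cck as the closest coding TSS at 97433 bp. Region 11 lay in Man1c1 and region 12 lay between genes near Gm6657. By place, 5 of the 12 highest were outside genes and only region 2 was within 1 kb of a coding TSS.

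At the threshold, members and non-members had like values. Among those just inside 3000 were regions in an intron of Ttc7 (3001.22 with ab1, 955.39 with ab2, 71.57 with ab3) and in the first intron of Igsf21 (3003.86, 1783.83 and 393.67). Among those just outside were regions in an intron of Pcdh9 (2989.49, 1200.31 and 201.39) and between genes near Gm11232 (2994.03, 1832.68 and 280.24). The ab2 and ab3 scores of the regions on each side overlapped.

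Peaks of all 3 antibodies were present in 794 members (98.9%, interval 97.9 to 99.4), against 22.2% of all shared regions. This share grew along the score scale, from 0.571% at scores of 50 to under 100 through 24.9% at 300 to under 1000 to 95.4% at 2000 to under 3000. The 9 members without an ab3 peak included a region at the Neurod2 locus. Region 652 (chr12:27340853-27344073) covered the TSS of Sox11, a SoxC factor of young neurons, with scores of 3100 for ab1 and 1674.82 for ab2. Region 797 (chr11:98332950-98336055) lay at -4855 bp from the TSS of Neurod2 itself, with 3100 and 792.68. Region 803 (chr19:7263952-7270316) lay at -1145 bp from the TSS of Rcor2, a subunit of the CoREST corepressor complex, with 3100 and 277.52, the lowest ab2 score of any member. The remaining 6 were at the TSS of the calmodulin gene Calm2, in the first introns of the complexin gene Cplx2 and of the cell cycle factor E2f1, near Znrf4 and Cstad, and in an intron of Auts2.

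The members were wide. Their median width was 1694 bp (range 630 to 6745), against 1314.5 bp in the regions from 2000 to under 3000 and 865 bp over all shared regions. Of the members, 170 (21.2%) were at least 2500 bp wide, against 2.13% of all shared regions. Width and score come from the same reads, and joining several peaks adds to width. Exactly 1 peak of each antibody was merged in 646 members, and more than 1 peak of ab1, ab2 or ab3 was merged in 64, 53 and 83 members. The widest members were region 724 (chr12:12936811-12943555, 6745 bp) over the proto-oncogene Mycn, region 803 at Rcor2 (6365 bp) and region 627 (chr8:120546633-120552695, 6063 bp) near Gins2. The narrowest were region 630 near Arrdc3 (630 bp), region 281 near the contactin gene Cntn6 (667 bp) and region 376 near Pik3c3 (745 bp). Together the members covered 1.56 Mb, which was 4.73% of the bases of all shared regions.

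Extended E-boxes were frequent in the members, but their share in the central window did not rise with the score. In the central 200 bp of the region, 449 of 803 members held at least 1 (55.9%, interval 52.5 to 59.3), against 59.6% of all shared regions and 59.9% of regions from 2000 to under 3000. In windows of 200 bp that started 1000 bp beyond the region ends, the members' shares were 26.0% and 25.4%. The members thus held E-boxes at their centre more often than nearby, at a level slightly under that of all shared regions. Regions under 3000 with all 3 antibodies stood above the members, at 64.3% (63.2 to 65.5). The form CAGCTG stood in the central window of 26.9% of members, against 28.1% of all shared regions.

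The midpoint of a wide region is a coarse guide to where the antibodies overlap. The window was therefore also placed on the stretch shared by the highest peak of every antibody, a choice made after the central-window values were seen. At this stretch, 570 of the 800 members that had one held an extended E-box (71.2%, interval 68.0 to 74.3), against 64.0% of all shared regions and 73.1% of regions from 2000 to under 3000. At the midpoint of the highest ab3 peak the members' share was 70.0% against 73.2% of all shared regions with an ab3 peak. At the midpoint of the highest ab2 peak it was 60.8% against 59.8%, and at that of the highest ab1 peak 56.8% against 60.4%. The shared stretch had a median length of 955 bp in the members. Of members, 73 (9.12%) held 3 or more extended E-boxes within these 200 bp, against 5.53% of all shared regions, but 9.25% of regions from 2000 to under 3000 and 8.29% of regions under 3000 with all 3 antibodies.

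The share was not higher in the members than in weaker regions with peaks of all 3 antibodies. Among members with peaks of all 3 antibodies, 71.8% (interval 68.6 to 74.8) held an extended E-box at the shared stretch. Among the 6336 regions under 3000 that also had peaks of all 3 antibodies and a shared stretch, the share was 75.0% (73.9 to 76.0). Within the members, the share was 70.4% where ab1 was at 3100 and 75.2% where ab1 had another value, with intervals that overlapped (66.8 to 73.8 and 67.6 to 81.5).

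**Figure D2:**
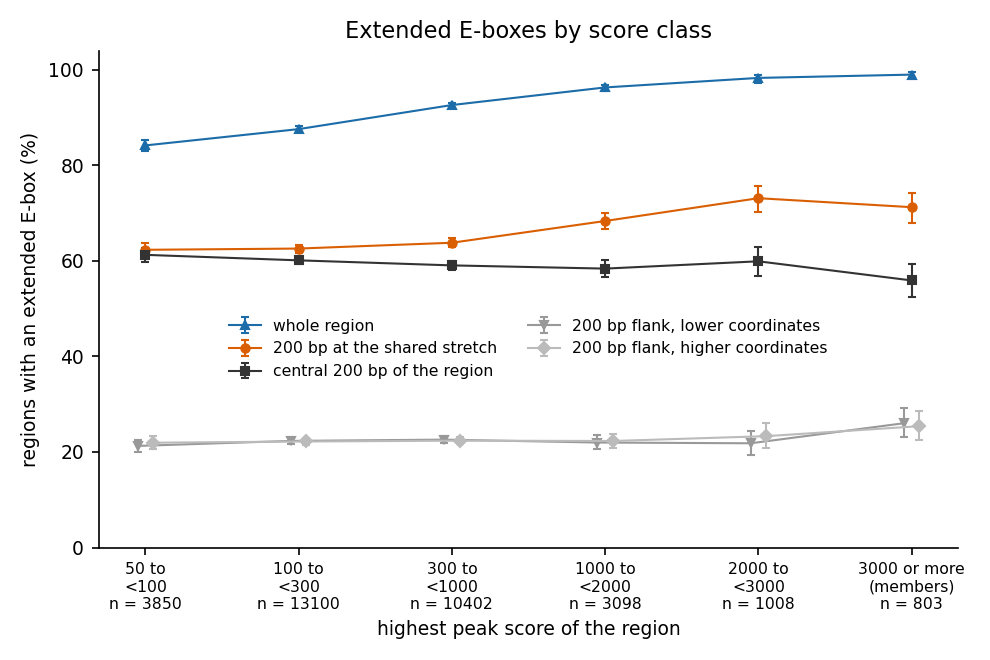
Percentage of shared regions with at least 1 extended E-box (y axis) by class of highest peak score (x axis, n under each class), with 95% Wilson intervals as bars. The whole-region share climbs to 99.0% in the members. The share at the shared stretch is 73.1% at scores from 2000 to under 3000 and 71.2% in the members. The central 200 bp stays between 55.9% and 61.3%, above flanks near 22% to 26%.

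Counted over the whole region, nearly every member had an extended E-box. At least 1 was present in 795 members (99.0%), against 90.3% of all shared regions, 98.3% of regions from 2000 to under 3000 and 87.9% of flanks as long as the members on either side. The members held 4.91 ± 2.91 extended E-boxes per region (SD over 803 regions), and all shared regions held 2.35 ± 1.99. Longer regions have room for more matches. Per kb, the members held 2.53 in the region and 1.44 in the flanks, a ratio of 1.75, and all shared regions held 2.30 and 1.33, a ratio of 1.73. Regions under 3000 with all 3 antibodies held 2.61 per kb, above the members, at a ratio of 1.95 to their flanks. More extended E-boxes than in either flank of the same length were found in 481 members (59.9%), against 46.0% of all shared regions, 55.7% of regions from 2000 to under 3000 and 54.0% of regions under 3000 with all 3 antibodies. Among the members with the most were region 443 (chr10:74932329-74937613, 5285 bp) with 21 and region 607 near the cadherin gene Cdh4 with 19. Region 443 had 16 in its downstream flank as well.

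**Figure D3:**
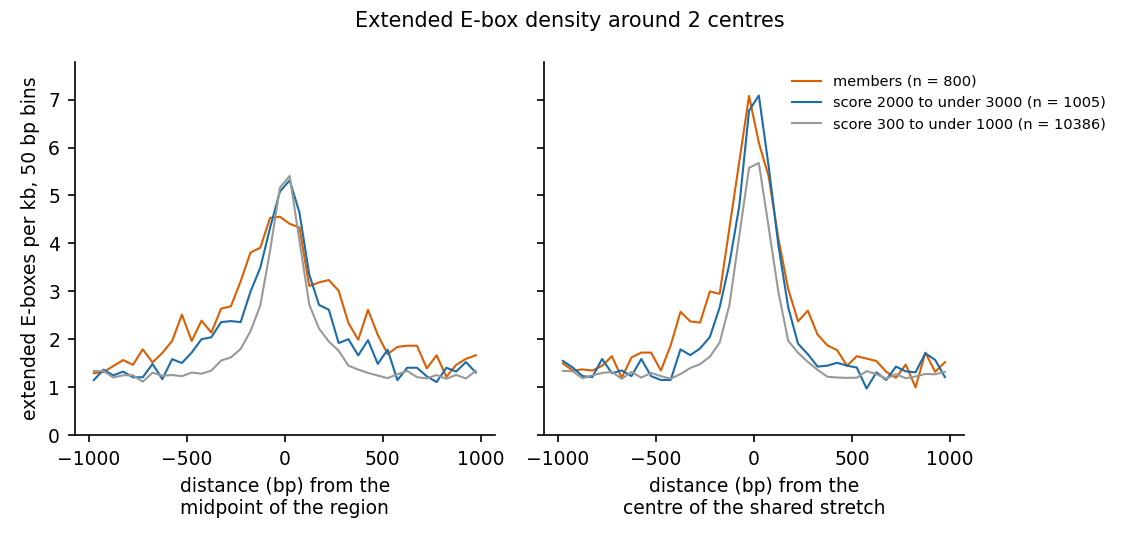
Extended E-boxes per kb (y axis, 50 bp bins) by distance in bp (x axis) from the midpoint of the region (left) and from the centre of the shared stretch (right), for members and 2 lower score classes. The members' density next to the centre is 4.56 per kb at the midpoint and 7.08 per kb at the shared stretch, and it falls with distance on both sides.

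The members' peak of density was lower and broader than that of weaker regions when the midpoint was used. In the 50 bp just before the midpoint, members held 4.56 extended E-boxes per kb and regions from 2000 to under 3000 held 5.08. In the 50 bp just before the centre of the shared stretch, the densities were 7.08 and 6.77, and in the 50 bp just after it they were 6.1 and 7.08. Neither group was thus denser on both sides of the centre. From 250 to 200 bp before that centre, members still held 3.0 per kb and the lower class 2.05.

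By the letters of the core, CAGATG and CAGCTG led in the members. At the shared stretch, CAGATG (or its reverse complement CATCTG) stood in 53.0% of members and in 46.2% of all shared regions, and in 17.5% of the members' flanks. CAGCTG stood in 35.8% of members, in 30.7% of all shared regions and in 11.1% of the members' flanks. CATATG stood in 13.5% of members, in 12.4% of all shared regions and in 5.48% of the members' flanks. These 3 forms were 2.46 to 3.21 times as frequent at the members' shared stretch as in their flanks. Over all shared regions the same ratios were 2.23 to 3.42. The remaining forms stood closer to the flanks. CACCTG, the form preferred by E proteins and Snail factors, was present in 21.6% of members, 18.6% of all shared regions and 14.7% of the members' flanks. For CACGTG, the form of the Myc family, these shares were 3.5%, 3.90% and 3.11%. For CAATTG they were 1.38%, 2.26% and 2.8%.

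Short motifs of other factors of the cortex were searched on both strands in the same 200 bp, and a match is a description of letters only. TGACAG, the core of MEIS and related TALE homeodomain factors, stood in 30.5% of members (interval 27.4 to 33.8), in 29.3% of regions from 2000 to under 3000, in 26.0% of all shared regions and in 13.2% of the members' flanks. TTGGC, a half-site of the NFI factors, stood in 47.1% of members (43.7 to 50.6) against 45.9% of regions from 2000 to under 3000, 43.3% of all shared regions and 32.4% of flanks. GTTGCC, a half-site of RFX factors, stood in 10.9% of members, 8.56% of regions from 2000 to under 3000 and 9.12% of all shared regions. Both TGACAG and TTGGC were therefore more frequent than in the flanks, in members and in all shared regions alike. GGGCGG, the SP element of CpG-rich promoters, was less frequent in members (9.62%) than in all shared regions (12.8%), at a share near the 9.85% of regions from 2000 to under 3000. TAATTA, read by homeodomain factors, stood in 3.88% of members, 5.17% of regions from 2000 to under 3000 and 6.18% of all shared regions. ACAATG, read by SOX factors, stood in 7.0%, 6.37% and 8.14%, and the members' flanks held both more often (6.12% and 11.8%). TGACTCA (AP-1) stood in 2.5% of members against 3.05% of all shared regions, and AGGTGTGA (T-box) in 1.5% against 1.30%. ATGCAAAT (POU) stood in 0.875% against 1.71%, and TGACGTCA (CRE) in 0.125% against 0.348%. The paired NFI site (TGGC and GCCA 5 bases apart) was found in 2.75% of members and 2.00% of all shared regions. The EBF site (TCCC and GGGA 2 bases apart) was found in 0.875% and 0.590%. A match may share bases with another motif, as TGACAG and an E-box that starts with CAG can.

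The GC content of the members was close to that of the other regions, and repeats in their central window were somewhat more frequent than over all shared regions. In the central 200 bp it was 51.9 ± 7.69% in members (SD over 803 regions) and 51.9 ± 9.62% over all shared regions, and that of the flanks was 46.0% and 44.5%. Annotated repeats covered a median of 9.5% of the members' central window, 6.0% of that of regions from 2000 to under 3000 and 1.0% of that of all shared regions. In the members' flanks the median was 18.2%. Any repeat stood in the central window of 55.3% of members (interval 51.8 to 58.7), against 53.7% of regions from 2000 to under 3000, 52.8% of regions under 3000 with all 3 antibodies and 50.4% of all shared regions.

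Members lay far from promoters more often than shared regions as a whole. The midpoint of 54 members (6.72%, interval 5.19 to 8.67) was within 1 kb of the TSS of any gene, against 15.7% of all shared regions. The share was 10.8% of the 83 regions left without ab1, and 12.5% of the members when all annotated transcripts were used. For protein-coding genes the count was 34 (4.23%) against 12.7%. Beyond 10 kb of any TSS lay 566 members (70.5%, 67.2 to 73.5) against 62.0%, and beyond 50 kb lay 193 (24.0%) against 22.6%. The median distance to the closest TSS was 21458 bp in members and 17491 bp over all shared regions. As with the E-box, regions with 3 antibodies under 3000 stood close to the members, with 7.30% within 1 kb and 69.6% beyond 10 kb of a TSS. The 146 members whose ab1 score was not 3100 lay within 1 kb of a TSS in 11.6% of cases (7.4 to 17.9), and the 657 at 3100 in 5.63% (4.11 to 7.67).

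**Figure D4:**
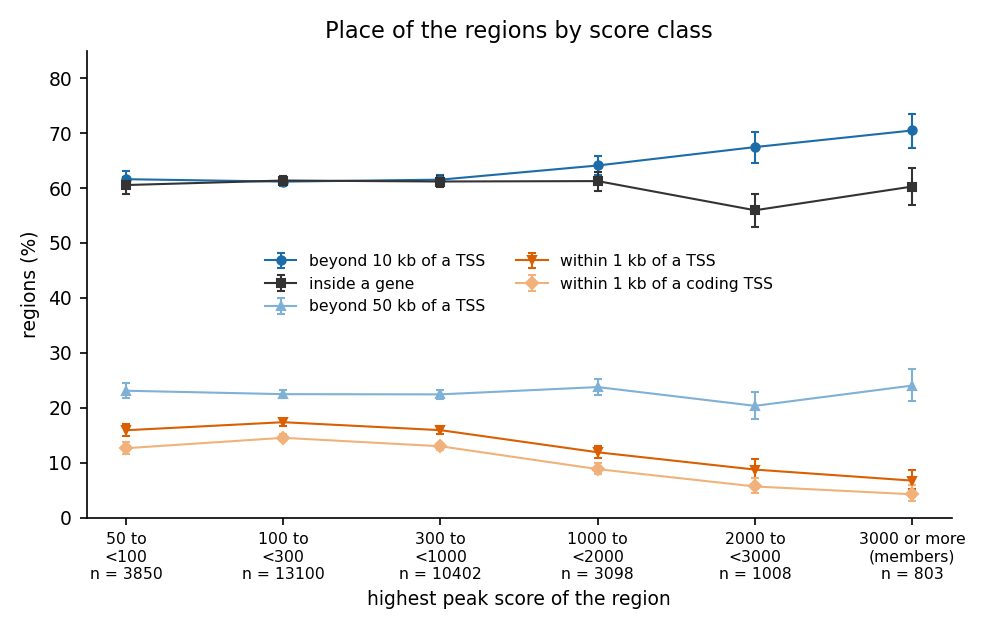
Percentage of shared regions (y axis) at 5 kinds of place by class of highest peak score (x axis, n under each class), with 95% Wilson intervals as bars. The share within 1 kb of a TSS falls to 6.72% in the members, the share beyond 10 kb rises to 70.5%, and the share inside genes stays at 56.0% to 61.4% in all classes.

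Inside a gene lay 484 members (60.3%), against 61.0% of all shared regions. By segment, 142 were in a first intron (17.7%), 293 in a later intron (36.5%, against 31.4% of all shared regions) and 319 outside genes (39.7%). Coding exons held 23 members (2.86% against 3.89%) and noncoding exons 16 (1.99% against 2.02%). Only 4 members (0.498%) were centred on a 5′UTR exon, against 0.694% of regions from 2000 to under 3000 and 4.65% of all shared regions, and 6 on a 3′UTR exon.

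The 34 members within 1 kb of a coding TSS differed in sequence from the distal ones. Their central window had a GC content of 62.2 ± 11.1% and 11.6 CpG dinucleotides, against 50.9 ± 7.27% and 3.27 in the members beyond 10 kb. An extended E-box stood at their shared stretch in 16 of 34 (47.1%, interval 31.5 to 63.3), against 72.5% (68.7 to 76.0) of the distal members. They were wide, with a median of 2264.5 bp. Beside Krtap16-1, the highest by summed score were at Bcl7a, a subunit gene of the BAF chromatin remodelling complex, Prdm8, a transcriptional regulator of neurons, and Hlcs, which encodes an enzyme that attaches biotin. Region 117 (chr1:91411936-91415389), 441 bp from the TSS of Hes6, a bHLH gene that acts against Hes1 in neurogenesis, had scores of 3100 with ab1, 3100 with ab2 and 283.51 with ab3. Others were at Slc35c2, Syt3 of the synaptotagmin family, Btbd17, Nsg2, an endosomal gene of neurons, and Gm960. The distances ran from 4 bp (Gm960) to 952 bp (Btbd17) among these.

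Members were spread over all chromosomes except Y, which held 1 shared region. Chromosome 8 had the highest share, with 63 of its 1812 shared regions (3.48%, interval 2.73 to 4.42), followed by chromosome 5 with 79 of 2355 (3.35%). Chromosome X had the lowest, with 4 of 508 (0.787%, 0.307 to 2.01), and chromosome 18 the lowest of the autosomes with 14 of 1073 (1.30%, 0.779 to 2.18). Per Mb, chromosome 11 (0.524) and chromosome 5 (0.520) held the most members.

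Some members lay close together. The median distance to the closest other member was 369158 bp, but 84 members lay within 10 kb of another and 197 within 50 kb. By the closest coding TSS, the members fell to 648 genes, of which 540 had 1 member, 81 had 2 and 27 had 3 or more. These 27 genes took 101 members. Being the closest TSS does not make a gene a target.

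Prex1, which encodes an activator of Rac GTPases known for its part in the migration of cortical neurons, was the closest coding gene of 6 members among its 29 shared regions (20.7%). Of these, 5 lay in its introns, from 21.673 to 81.171 kb downstream of the TSS. Their ab2 scores were 1418.09, 1893.39, 1886.39, 2299.92 and 2252.54 in order of distance. The ab3 scores in the same order were 250.71, 579.31, 463.67, 1037.62 and 392.04. The intronic member at 76.832 kb was thus the highest with both. The member at 163.77 kb, beyond the gene, had the lowest ab3 score of the 6 (142.42) and an ab2 score of 1572.25. The 6 regions held 42 extended E-boxes, between 5 and 11 each.

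**Figure D5:**
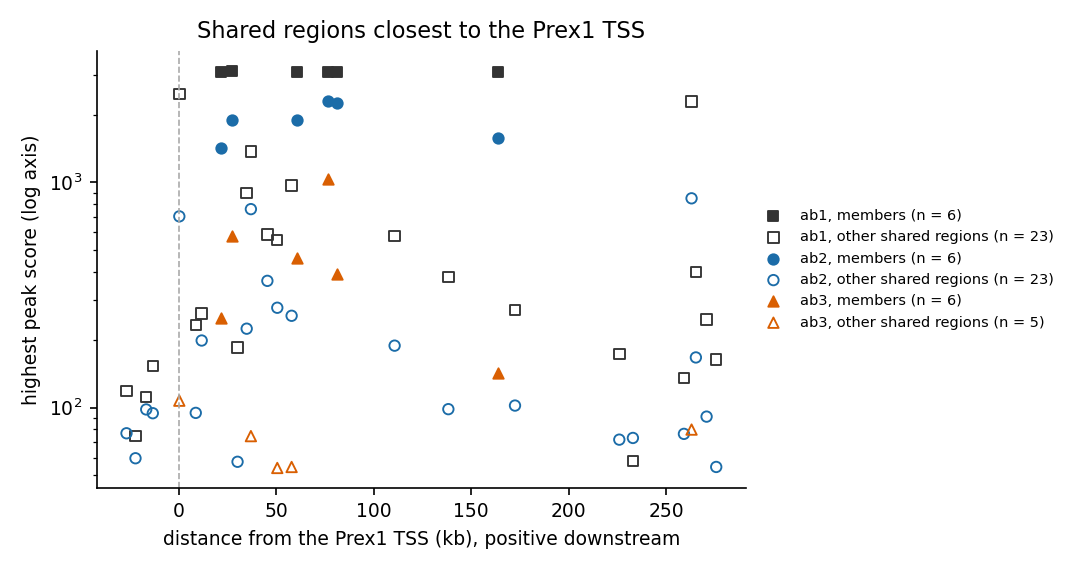
Highest peak score of each antibody (y axis, log scale) in the 29 shared regions closest to the Prex1 TSS, by distance from it in kb (x axis, positive downstream); filled symbols are the 6 members and open symbols the other 23. The members stand at 21.673 to 163.77 kb, and 5 of them lie within 81.171 kb of the TSS.

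Galnt17, a glycosyltransferase gene, also had 6 members of 56 shared regions, but 1 of them lay in the gene itself and all were at least 218.416 kb from its TSS. Its neighbour Auts2, a regulator of transcription linked to neurodevelopmental disorders, had 5 of 52, of which 4 lay inside the gene, at least 372.984 kb from its TSS. Regions 304 and 781, counted for Galnt17, also lay in introns of Auts2. Triqk had 5 of 25, with region 1 among them. Cbfa2t3 had 4 of only 9 shared regions (44.4%), and all of them had high scores: ab2 was 3100 in 3 and 1936.4 in the other, and ab3 ran from 581.54 to 1468.71. Of the genes with 4 members, Cntn2, the axonal adhesion gene also called Tag1, and Elfn1 had 4 of 11 each (36.4%). Dscam, a netrin receptor gene, had 4 of 28, all in its own introns, with ab2 scores from 2000.33 to 2958.36. Gins2, Klhl29 and Gm26897 were also among those with 4.

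Genes of 17 lists on cortical development and neuronal function were the closest coding gene of 114 members (14.2% of members, against 9.92% of all shared regions). A member is placed at or near a listed gene below when that gene had the closest coding TSS. The distance to it ran from 0.11 kb (Sox11) to 724.11 kb (Pcdh18). A total of 75 of the 353 listed genes had a member and 312 had a shared region. The lists were put together with earlier results of these data known, so the counts describe and do not support a theme. Counts are small, and most intervals include the share over all shared regions.

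Corepressor genes were closest to more members than the genes of any other list, 17 in all (2.12%, interval 1.33 to 3.36, against 0.626% of all shared regions). Among these were members at Cbfa2t3 (4), Gse1 (3), Tle3 (2), Cbfa2t2, Ctbp2, Rcor2 and Bcor. The member counted for Bcor lay outside genes, 359.68 kb from the Bcor TSS. The NFI, SoxC, Myt1 and Ebf factors, which act in the maturation of neurons, were closest to 13 (1.62%, 0.949 to 2.75, against 0.697%). These were at Sox11 (4), Sox4 (3), Nfix (2), Ebf1 (2), Ebf3 and Myt1l. Regions 160 and 412, counted for Sox4, lay in introns of Cdkal1, 379.16 and 320.49 kb from the Sox4 TSS. Zinc finger and Auts2 regulators had 8 (0.996%, 0.506 to 1.95, against 0.614%), of which 5 were at Auts2 and 1 each at Zfhx2, Zfhx3 and Zbtb18.

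Layer-identity genes had shares near those of all shared regions, and bHLH genes had small counts with intervals that include the share over all shared regions. Deep-layer factors had 4 members (0.498%, against 0.570%), 1 each with Etv1, Sox5, Foxp2 and Bcl11a as the closest coding gene. The TSS of Bcl11a was 553.72 kb away. Region 372 lay 339 bp from the Foxp2 TSS, and had scores of 3100, 2234.03 and 191.08 with ab1, ab2 and ab3. Upper-layer and callosal factors had 3 (0.374% against 0.360%), among them a member in Cux2 and another at Bhlhe22, which stands in the bHLH list as well. E proteins, Id proteins and Hes repressors, partners and antagonists of NEUROD2, had 5 (0.623%, interval 0.266 to 1.45, against 0.279%), 2 of them near Id4 and 1 each at Hes6, Hes1 and Tcf4. Neuronal bHLH factors had 3 (0.374%, interval 0.127 to 1.09, against 0.186%), of which 2 were at Neurod2 itself and 1 at Bhlhe22. Region 119 (chr11:98316431-98322022, 5592 bp), 10421 bp downstream of its TSS, held 17 extended E-boxes and scored 3100 with ab1, 3100 with ab2 and 281.98 with ab3. Region 797 upstream had no ab3 peak.

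Shares varied among the lists of neuron migration and axon guidance genes, and the Eph receptor and ephrin genes, also of axon guidance, are given below. Rnd proteins and other migration regulators were closest to 11 members (1.37%, 0.767 to 2.44, against 0.474%), 6 of them at Prex1 and the rest at Dpysl5, Dpysl4, Tiam2, Rnd3 and Cxcl12. Rnd3 is a small GTPase that acts in migrating neurons, and its member, region 431 (chr2:51090541-51091378), scored 3151.9 with ab1, 1872.48 with ab2 and 375.63 with ab3. Slit, Robo, netrin and receptor genes also had 11 (against 0.688%), with Dscam (4), Slit1 (2), Slit3, Robo1, Robo2, Unc5a or Unc5d as the closest coding gene. The TSS was 544.3 kb away for Robo1 and 715.71 kb away for Unc5d. Reelin signalling genes had 6 (0.747% against 0.363%). Of these, 2 lay near the Reelin receptor gene Lrp8 and 1 each near Vldlr, the other receptor, Dab1, the adaptor, Fyn, a kinase of Dab1, and Cdk5r1, the activator of Cdk5. Semaphorin, plexin and neuropilin genes had 5 (0.623% against 0.564%), with the highest ab3 score of 840.43 at Sema6d.

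Surface adhesion families had shares near or under those of all shared regions. Immunoglobulin and synaptic adhesion genes had 14 members (1.74% against 1.79%), at Cntn2 (4), Flrt1 (3), Nfasc (2), Cntn6, Lrrtm4, Igsf21, Cadm2 and Tenm4. Cadherin and protocadherin genes had 4 (0.498% against 1.04%), and Eph receptor and ephrin genes had 2 (0.249% against 0.639%), at Epha3 and Ephb2. Synaptic release and channel genes had 3 (0.374% against 0.409%), among them at Kcnq3 and Snap25. Genes of progenitors had 4 (0.498% against 0.499%), among them Sox9 and Emx1, and subpallial genes, which mark interneurons rather than projection neurons, had 3 (0.374% against 0.189%), near Maf and Npy. No expression was measured, so the tissue label was not checked against marker genes and the cells in which these regions were bound were not resolved.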

How the data were processed

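ChIP-Seq of NEUROD2 in E14.5 cortex gave 3 deposited peak lists, 1 per antibody. The authors mapped reads to mm10 with Bowtie, removed duplicates and called peaks with MACS against GFP libraries. The score of a deposited peak is the caller's score, 10 times −log10 of p as the authors' caller wrote it, neither scaled between libraries nor corrected for depth. The GFP libraries served as controls during peak calling and have no values here. The members and all gene lists were chosen with earlier results of these data known.

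Peaks sharing 1 bp were merged, and regions on chromosomes 1 to 19, X and Y with at least 2 antibodies were kept. Windows of 200 bp were read from GRCm38 (mm10). Genes came from GENCODE M21, with the longest transcript of each of 55413 genes. Each motif position counted as 1 match whichever strand held it. Merging, motif counting, distances and segments were tested on simulated data. Shares carry 95% Wilson intervals from scipy 1.17.1, and Python 3.11.15 and pandas 2.3.3 were used. Positions count from 1. The reference is of another strain than BALB/c, and strain variants were not seen. Members are numbered by the sum of their antibodies' highest scores. Named in the text were the members at the ends of each scale (summed score, ab3 score, E-box count, width, threshold), those without ab3, those at coding TSSs, the genes with most members and genes of the lists. The alternatives were other overlaps, score limits, antibody sets, window centres and sizes, motif and transcript sets. Some genes and regions that these rules name are not reported here.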

Additional observations from a re-analysis of the deposited data

How the results depend on the processing

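No value changed direction in a test, since no test was made. No paired analysis was possible because the GFP libraries that share replicate numbers with the NEUROD2 libraries have no values here. With an overlap of 50% of the shorter peak or a score of at least 3100, all 9 summary values stayed within the limits set for them. For shares the limits were the Wilson intervals. They were 535.333 to 1204.5 for the number of members and 1643 to 1766 bp for the median width. For GC content they were 44.2% to 59.6%, the mean minus and plus the SD over regions, which is too wide to show a small change. Leaving out 1 antibody moved the number of members between 83 and 803, the E-box share of the central window between 55.8% and 61.4%, the share within 1 kb of a TSS between 6.40% and 10.8%, that beyond 10 kb between 70.5% and 74.7%, that inside genes between 55.4% and 60.3%, and the median width between 1563 and 1900 bp. The values far from those reported came without ab1, except the narrowest median, which came without ab2. A score of at least 2000 gave 1811 regions, 97.0% with all 3 antibodies and a median width of 1465 bp. Requiring all 3 antibodies sets that share to 100%. Taking 803 regions by summed score gave 99.9% with all 3, by ab2 99.9% and 1630 bp, and by ab3 100% and 1531 bp, the ab2 and ab3 choices being made after seeing the data.

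Windows of 100 bp gave an E-box share of 33.7% and a CAGCTG share of 14.3%, and windows of 400 bp gave 77.3% and 43.1%, as shorter and longer windows hold fewer and more letters. CANNTG gave 84.4%. Centres chosen after seeing the data gave 71.2% and 35.8% at the shared stretch, and 70.0% and 34.9% at the highest ab3 peak, and the cause was not tested. With protein-coding genes only, 4.23% lay within 1 kb and 87.2% beyond 10 kb of a TSS and 52.4% inside a gene, and with all transcripts 12.5% and 57.8% lay within 1 kb and beyond 10 kb. Read depth and summit positions were not used here, so how depth limits a score of 3100 was not tested.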
